A study of Mus musculus with 72 samples.

Results

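Mouse macrophages were compared with themselves 24 h later. The 9 libraries made at 34, 36 and 38 h after serum shock were set against the 9 made at 58, 60 and 62 h, each library paired with the one taken exactly 24 h later in the same time course, which gives 9 pairs in 3 courses. These are 18 of the 72 libraries of the series, chosen by the time point in their labels. A 24 h gap puts both members of a pair at the same phase of a 24 h clock, so the comparison asks what changed with time in culture. A rhythm that damps, or whose period is not exactly 24 h, does not cancel fully.

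All libraries came from bone marrow derived macrophages. Progenitors from the femurs and tibias of male C57BL/6 mice aged 3 to 6 months, all with the Per2::Luc genotype (a luciferase reporter in the clock gene Per2), were grown in DMEM based medium with M-CSF for 6 days until confluent. Per the series' design text the cultures then received a serum shock, which brings the clocks of the cells into step, and RNA was taken every 2 h from 16 h. Total RNA was depleted of ribosomal RNA and sequenced in paired ends, and lysates of all time points were frozen before extraction. No culture without serum shock was analysed here. The labels are silent on whether each course had its own animals or cultures and on whether the medium was renewed, so p-values reflect the spread among these libraries only, and that spread may be technical.

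M-CSF both directs marrow progenitors into the macrophage lineage and makes young macrophages divide. Cells that stop dividing shut down genes in an order set by E2F factors, which act on DNA synthesis, and by the DREAM complex and B-MYB with FOXM1, which act on mitosis. Macrophages also adjust lipid synthesis through the SREBP factors, glycolysis through HIF, and protein folding through the unfolded protein response and heat shock factors, and each of these programmes has well known target genes. The lists used here follow those programmes and were described by counts and medians, with no set test.

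The 18 libraries held 49465216 to 67839053 counts assigned to genes (median 57331689.5), and 16871 genes were tested. Levels below are CPM, the usual per-library scaling of gene counts to a common total, adjusted by TMM, given as the lowest, median and highest of the 9 libraries of a window. Changes are fitted log2 differences, late minus early, with their standard error (SE), from edgeR's quasi-likelihood test with the pair as block and Benjamini-Hochberg adjustment. Several properties of the libraries moved with the window. The share of counts from all genes of mitochondrial DNA was 8.38% to 11.05% (median 9.49%) at 34 to 38 h. At 58 to 62 h it was 11.2% to 12.8% (median 12.2%), higher in 9 of 9 pairs. The share from ribosomal protein genes was 1.22% to 1.54% and then 0.907% to 1.18%, lower in 9 of 9 pairs, and the share of alignments that were not unique was lower in 9 of 9 pairs (median 29.7% and 26.3%). Total counts were higher in 4 pairs and lower in 5. The libraries at 60 h of course 2 and of course 3 stood apart, lying 2.17 and 1.76 times as far from the other courses at their hour as is typical over the series. The part of these properties in the results was not tested, and where a list's counts differ without the 2 pairs that stand apart, both are given.

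In all, 6991 genes (41.4% of those tested) differed between the windows: 3546 (21.0%) were higher and 3445 (20.4%) lower at 58 to 62 h. These shares are the background for every count of list members below. The falls were larger: 619 genes fell by at least 2-fold and 310 rose by that much, and the windows did not overlap for 1368 genes (8.11%), of which 529 (3.14%) were higher and 839 (4.97%) lower. The median change of all genes was 0.01, and the median size of a called change was 0.37. Of the genes called higher 3501 had that sign in each of the 3 courses, and of those called lower 3399. Without the pairs at 60 h of courses 2 and 3, 6645 genes of 18005 were called, 3258 higher and 3387 lower. The number called higher was the one that depended most on a single course, at 2170 without course 1. In bulk RNA fewer cells of a type and less RNA per cell cannot be told apart, which holds for every result that follows.

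**Figure D1:**
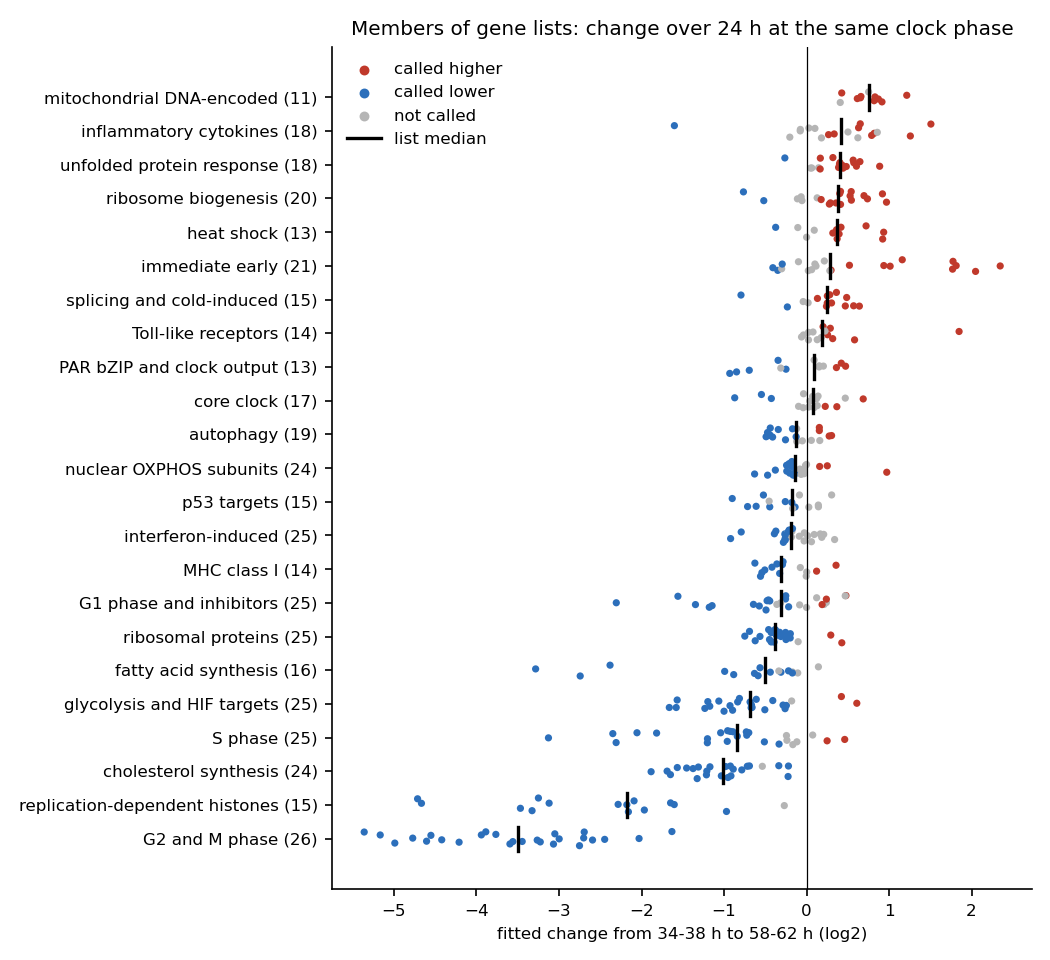
Fitted change from 34-38 h to 58-62 h (log2, x axis) of each tested member of 23 gene lists (rows, number tested in brackets). Points are genes, red if called higher, blue if called lower and grey if not called, and the black bar is the list median: the G2 and M phase list lies furthest left, with a median of -3.50, and the mitochondrial DNA-encoded list furthest right, at 0.75.

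Genes of mitosis fell furthest. All 26 tested genes of the G2 and M phase list were lower at 58 to 62 h, with a median change of -3.50, and for 25 the windows did not overlap. Among all genes 20.4% were lower, 4.97% were lower without overlap of the windows, and the median was 0.01. The same 26 were lower without the pairs that stand apart. Ccnb2, the cyclin B2 that partners the mitotic kinase (chromosome 9, 70407692 to 70421547, GRCm38), stood at 14.4, 40.7 and 72.4 CPM at 34 to 38 h and at 0.489, 1.03 and 2.90 CPM at 58 to 62 h. Every late library lay below every early one, and the fitted change was -5.36 ± 0.20 (SE; adjusted p = 8.74e-09). Ube2c, which loads ubiquitin for the anaphase-promoting complex, went from a median of 29.7 to 0.706 CPM (-5.17 ± 0.19), and Cdc20, the activator of that complex, from 44.4 to 2.46 CPM (-3.94 ± 0.12). Prc1, which bundles the microtubules of the central spindle, changed by -3.89 ± 0.15. The smallest fall of the list was that of Mybl2, the B-MYB factor, at -1.63 ± 0.32, which at a median of 0.957 CPM was already low at 34 to 38 h.

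The 14 largest falls among genes of at least 5 CPM on average that fell in 9 of 9 pairs were of genes of mitosis and of histones. Fam64a, a gene of proliferating cells, fell by 5.42 on the log2 scale, from between 4.02 and 39.1 CPM to between 0.206 and 0.863 CPM. Aspm (-5.12 ± 0.21) and Cenpf (-4.99 ± 0.20) act at spindle poles and kinetochores. Kif14 and Kif2c are mitotic kinesins, Birc5 is the survivin subunit of the chromosomal passenger complex, Plk1 is the polo kinase, and Hmmr and Ckap2l belong to the spindle, and these changed by -4.87 to -4.41. The other 3 were the histone genes Hist1h3c, Hist1h3b and Hist1h2af. For all 14 the late libraries lay below the early ones without overlap.

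The promoter of Ccnb2 is shown because the falls were largest in genes of this kind, whose promoters are known for CCAAT boxes and for the cell cycle homology region (CHR) bound by DREAM and B-MYB. It is printed from RefSeq (GRCm38.p6, chr9:70421505-70421804, minus strand), 250 bases before to 50 after the start, with matches to CCAAT and TTTGAA in capitals.
Ccnb2: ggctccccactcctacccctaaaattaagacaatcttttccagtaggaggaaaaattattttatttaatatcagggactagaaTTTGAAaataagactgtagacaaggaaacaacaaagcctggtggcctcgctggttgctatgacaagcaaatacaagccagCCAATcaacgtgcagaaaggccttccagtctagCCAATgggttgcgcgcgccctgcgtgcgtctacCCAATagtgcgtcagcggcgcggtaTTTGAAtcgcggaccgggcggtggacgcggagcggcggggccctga
Of the 26 genes of the list 21 had such a window. TTTGAA, searched on both strands, stood in 14 of them (66.7%), against 20.2% of the 27025 genes with a window and 15.1% of the tested ones. CCAAT stood in 18 (85.7%), against 41.1% and 42.5%. A match describes letters in the window and does not show binding.

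DNA synthesis genes fell too, but less and less uniformly. Of 25 tested S phase genes 18 were lower and 2 higher, with a median of -0.84, and 11 had windows that did not overlap. Among all genes 20.4% were lower, 21.0% were higher, and 8.11% had windows that did not overlap. Mcm10, a loader of replication proteins, fell from 3.64, 9.39 and 22.5 CPM to 0.653, 1.03 and 1.76 CPM (-3.13 ± 0.17, adjusted p = 8.40e-08). Uhrf1, which carries DNA methylation through replication, changed by -2.31 ± 0.19, Mcm5 of the replicative helicase by -1.82 ± 0.18 and Mcm7 of the same ring by -1.20 ± 0.12. Mcm2, another subunit of that helicase, rose by 0.25 ± 0.07 (adjusted p = 0.00988) and the G1 cyclin gene Ccne1 by 0.46 ± 0.16 (0.0318), but with counts summed per course and window no member of the list was called higher. Pcna, the sliding clamp, stood at medians of 91.4 and 98.0 CPM and was not called (adjusted p = 0.209). Without the pairs that stand apart 18 members were lower and 1 was higher. Of 15 tested replication-dependent histone genes 14 were lower, with a median of -2.18: Hist1h3c went from 13.6, 58.5 and 136 CPM to 1.28, 1.68 and 2.56 CPM. Histone paralogs are near-identical, and reads that align to several places were not counted, so single histone genes are uncertain.

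Genes of G1 phase and of p53 action leaned lower as well, beside 20.4% lower and 21.0% higher over all genes. Of 25 genes of G1 phase and its inhibitors 14 were lower and 3 higher (13 and 2 without the pairs that stand apart). Cdkn2c, the INK4 inhibitor p18, went from 52.3, 89.1 and 149 CPM to 27.6, 31.2 and 35.4 CPM (-1.56 ± 0.14), and Cdkn2d, the inhibitor p19, changed by -1.18 ± 0.09. E2f8, a repressing E2F, changed by -2.31 ± 0.17 and E2f1, an activating one, by -0.48 ± 0.04. Rb1, the retinoblastoma gene, was among the 3 that were higher, at 0.48. Of 15 p53 target genes 8 were lower and 0 higher: the death effector gene Bbc3 went from 45.2, 48.7 and 58.0 CPM to 21.2, 27.2 and 35.7 CPM (-0.90 ± 0.07), and Mdm2, the ligase that holds p53 down, changed by -0.52 ± 0.04. Without the pairs that stand apart 8 of the p53 list were still lower.

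Sterol genes fell almost as a block. Of 24 tested genes of cholesterol synthesis and uptake 23 were lower and 0 higher, with a median of -1.01, and 23 were lower without the pairs that stand apart. Mvk, the mevalonate kinase, went from 16.6, 18.5 and 32.0 CPM to 6.29, 8.29 and 14.4 CPM, with no overlap between the windows (-1.21 ± 0.07, adjusted p = 1.64e-07). Pmvk, the next kinase of the pathway, changed by -0.72 ± 0.06, Nsdhl, a late sterol demethylation enzyme, by -0.92 ± 0.06 and Tm7sf2, a sterol reductase, by -1.03 ± 0.09. Hmgcs1, the HMG-CoA synthase, was lower in 9 of 9 pairs (-0.92 ± 0.10), yet stood at 182 CPM at 60 h of course 2 against 53.5 CPM at 60 h of course 3, on a scaling over all 72 libraries.

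The Hmgcs1 promoter is the 1 window of this list with a match to the sterol response element searched here, TCACCCCAC on either strand, shown in capitals (RefSeq, GRCm38.p6, chr13:119690101-119690400, plus strand).
Hmgcs1: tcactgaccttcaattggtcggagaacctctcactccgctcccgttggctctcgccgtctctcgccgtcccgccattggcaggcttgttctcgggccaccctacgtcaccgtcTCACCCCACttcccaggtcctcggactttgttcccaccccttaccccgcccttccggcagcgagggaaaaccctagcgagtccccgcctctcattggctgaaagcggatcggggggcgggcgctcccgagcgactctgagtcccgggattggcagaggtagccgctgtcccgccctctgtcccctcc
Of 24 genes 16 had a window, and the 1 match is 6.2% of them, against 0.6% of all 27025 genes.

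Fatty acid synthesis genes were lower in 12 of 16 cases and higher in 0, with a median of -0.50. The desaturase genes fell most. Scd1 went from 23.7, 41.6 and 85.4 CPM to 1.73, 2.83 and 43.0 CPM (-3.28 ± 0.32, adjusted p = 8.57e-06), Scd2 changed by -2.38 ± 0.21 and Fads2 by -2.74 ± 0.20. Each was lower in 9 of 9 pairs, and in each the late library at 60 h of course 2 was the highest and lay within the early range. Srebf1, the factor that drives such genes, changed by -0.59 ± 0.06. LXR targets went both ways, 5 of 12 higher and 2 lower (4 and 4 without the pairs that stand apart): the phospholipid transfer gene Pltp rose by 0.45 ± 0.08 and Mylip, a ubiquitin ligase, by 0.57 ± 0.04, while Smpdl3a changed by -0.44 ± 0.08. Of 20 genes of PPAR action and fatty acid use 7 were higher and 3 lower. Beside the LXR and PPAR lists, the shares over all genes were 21.0% higher and 20.4% lower. Plin2, which coats lipid droplets, rose from 710, 815 and 892 CPM to 1059, 1358 and 1910 CPM without overlap (0.79 ± 0.09), and Cpt1a, the gate of mitochondrial fatty acid import, rose by 0.76 ± 0.07. Angptl4, a lipase inhibitor, went from 3.04, 3.66 and 6.398 CPM to 2.28, 28.0 and 49.0 CPM (2.45 ± 0.41) and was higher in 8 of 9 pairs.

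Glycolysis and HIF target genes were lower in 22 of 25 cases and higher in 2, with a median of -0.68, and the counts were the same without the pairs that stand apart. Gpi1, the glucose phosphate isomerase, went from 358, 422 and 570 CPM to 185, 208 and 354 CPM (-0.9997 ± 0.07, adjusted p = 7.62e-07), and Tpi1, the triose phosphate isomerase, from 426, 529 and 696 CPM to 229, 290 and 378 CPM (-0.93 ± 0.07). In both the windows did not overlap. Eno1, an enolase, changed by -0.81 ± 0.06, and the HIF target Ankrd37 by -1.66 ± 0.15. Pfkfb3, which makes the activator of phosphofructokinase, went against the list at 0.61 ± 0.08, and so did Vegfa at 0.42 ± 0.12. Exons of Tpi1 overlap those of Spsb2 and exons of Gpi1 those of Gm26762 on the other strand, and how HTSeq treated strand is not known here.

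Mitochondrial genes split by genome. Of 11 tested genes of the list encoded in mitochondrial DNA 9 were higher and 0 lower, with a median of 0.75. Their summed level had a median of 2130.7 CPM early and 3700.5 CPM late. Most of the mitochondrial share of counts given above therefore came from other genes of mitochondrial DNA. mt-Nd1, of complex I, went from 77.2, 115 and 270 CPM to 137, 316 and 376 CPM (0.87 ± 0.15), mt-Cytb of complex III changed by 0.91 ± 0.18 and mt-Co1 of complex IV by 0.43 ± 0.08. All of these were higher in 9 of 9 pairs, and the median of the list ran from 0.11 in 1 pair to 1.54 in another. Of 24 nuclear genes for respiratory chain subunits 13 were lower and 3 higher, with a median of -0.14: Uqcrfs1, the Rieske protein of complex III, changed by -0.63 ± 0.06 and Atp5c1 of the ATP synthase by -0.47 ± 0.05. Cycs, cytochrome c, was higher at 0.97 ± 0.14, but at medians of 1.09 and 2.10 CPM, and near-identical copies make it uncertain. Of 21 genes of the TCA cycle 7 were lower and 5 higher, with a median of -0.05. Over all genes 20.4% were lower and 21.0% higher.

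**Figure D2:**
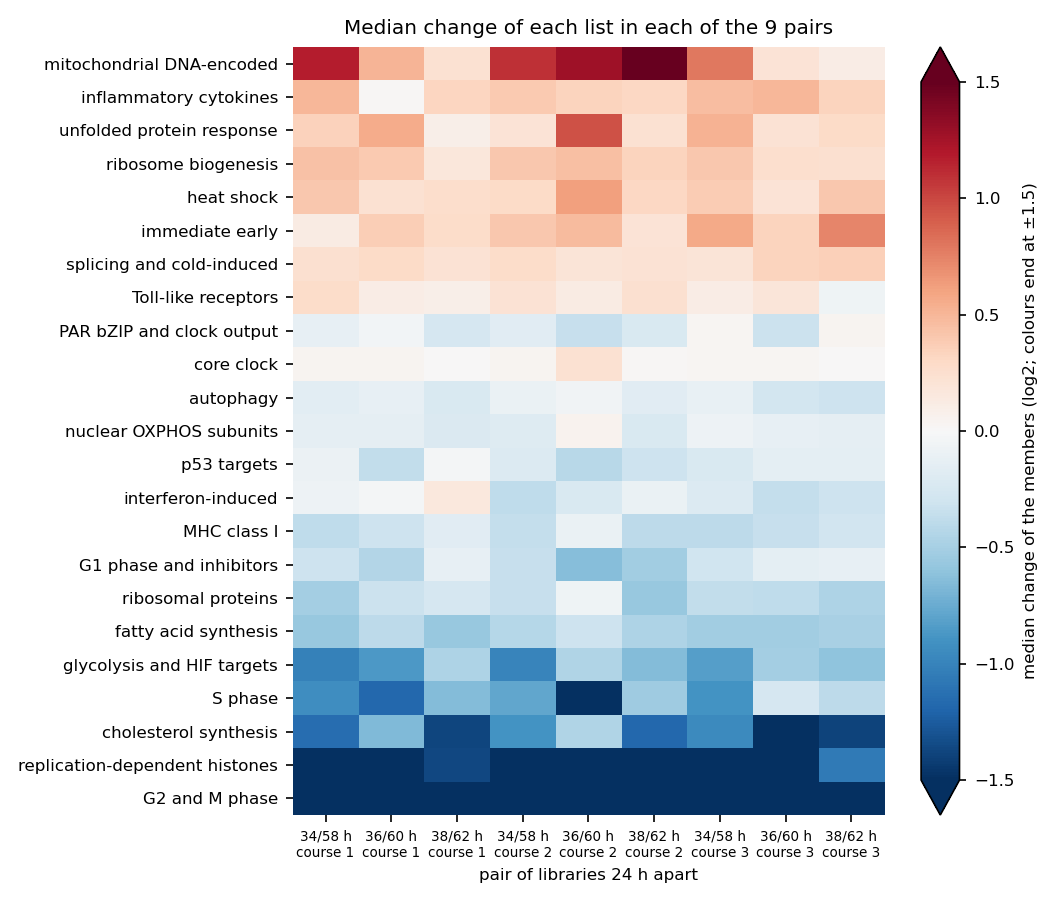
Median change (log2) of the tested members of 23 gene lists (rows) in each of the 9 pairs of libraries (columns, early hour/late hour and time course); colours run from blue (lower late) to red (higher late) and end at 1.5 in either direction. The G2 and M phase row is below 0 in 9 of 9 pairs (-4.28 to -2.16) and the unfolded protein row above 0 in 9 of 9 (0.08 to 0.96, highest in the 36/60 h pair of course 2).

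Most ribosomal protein genes fell and most genes that build ribosomes rose, though the summed level of the latter did not. Of 25 tested ribosomal protein genes 22 were lower and 2 higher, with a median of -0.38, and the same counts held without the pairs that stand apart. Rps18 changed by -0.69 ± 0.05, Rpl32 by -0.62 ± 0.06 and Rplp0 by -0.56 ± 0.05, each without overlap of the windows. The 2 that were higher, Rpl27 and Rpl10a, and others of this family have near-identical copies and are uncertain. Of 20 genes that build ribosomes 14 were higher and 2 lower, with a median of 0.38, again with the same counts without the pairs that stand apart. Nop56, of the complex that methylates ribosomal RNA, went from 11.2, 13.8 and 17.4 CPM to 19.4, 21.5 and 29.3 CPM (0.70 ± 0.05), Nolc1, a nucleolar chaperone, rose by 0.92 ± 0.10 and Bop1, of large subunit maturation, by 0.54 ± 0.05. In all 3 the windows did not overlap. Npm1, the abundant nucleolar protein, was lower at -0.76 ± 0.08. Exons of Nop56 overlap those of Idh3b on the other strand, and Idh3b was lower at -0.64 ± 0.04. The E-box CACGTG, the site of MYC and of the clock activators, stood in 3 of 17 windows of this list (17.6%), against 8.1% of all genes and 11.3% of tested genes with a window.

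Splicing and cold-induced RNA binding genes rose in 11 of 15 cases and fell in 2 (10 and 2 without the pairs that stand apart). The shares over all genes were 21.0% higher and 20.4% lower. Srsf2, a splicing factor of the SR family, went from 73.9, 91.6 and 104 CPM to 108, 141 and 163 CPM (0.64 ± 0.05, adjusted p = 2.01e-06). Srsf6 rose by 0.47 ± 0.05 and Srsf10, which acts in heat shock, by 0.30 ± 0.03, and the windows of all 3 did not overlap. Hnrnpa1 changed by -0.79 ± 0.07 and has many processed copies. Exons of Srsf2 overlap those of Mfsd11 and Mettl23.

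Chaperones rose, both in the endoplasmic reticulum and in the cytosol. Of 18 genes of the unfolded protein response 14 were higher and 1 lower, with a median of 0.40, and of 13 heat shock genes 9 were higher and 1 lower, with a median of 0.37. Without the pairs that stand apart the counts were the same. Hyou1, a large chaperone of the reticulum, went from 77.0, 90.3 and 122 CPM to 126, 156 and 450 CPM without overlap (0.89 ± 0.12, adjusted p = 0.000108). Dnajb11 rose by 0.57 ± 0.07, Dnajc3 by 0.43 ± 0.05 and the disulfide isomerase gene Pdia6 by 0.60 ± 0.08, all in 9 of 9 pairs. Hspa5, the chaperone BiP, stood at 637, 733 and 993 CPM and then at 814, 912 and 3662 CPM (0.57 ± 0.15). Its highest late value was from 60 h of course 2, and the median change of the list in that pair, 0.96, was the largest of the 9. In the cytosol Hsph1, a nucleotide exchange factor for HSP70, went from 5.07, 5.93 and 7.001 CPM to 8.23, 9.72 and 11.3 CPM (0.72 ± 0.06) and its co-chaperone relative Dnaja1 rose by 0.36 ± 0.04, both without overlap. Hsp90aa1, the inducible HSP90, rose by 0.37 ± 0.04, while the constitutive Hsp90ab1 changed by -0.37 ± 0.06. Exons of Dnaja1 overlap those of Smu1.

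The Hspa5 and Hsph1 promoters are shown because each list holds a known response element. In Hspa5 (chr2:34771840-34772139, plus strand) capitals mark the endoplasmic reticulum stress element, CCAAT and CCACG with 9 bases of any kind between them, which contains a CCAAT box. In Hsph1 (1 of 2 RefSeq windows, chr5:149636287-149636586, minus strand) capitals mark the heat shock element, GAA, TTC and GAA with 2 bases of any kind between neighbours, here on the other strand. Both are from RefSeq, GRCm38.p6.
Hspa5: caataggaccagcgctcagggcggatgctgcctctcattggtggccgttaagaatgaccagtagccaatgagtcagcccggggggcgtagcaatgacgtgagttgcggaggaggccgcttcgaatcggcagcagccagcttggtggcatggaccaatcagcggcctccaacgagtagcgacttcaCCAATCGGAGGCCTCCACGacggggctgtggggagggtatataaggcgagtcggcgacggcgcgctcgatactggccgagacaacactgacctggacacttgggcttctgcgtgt
Hsph1: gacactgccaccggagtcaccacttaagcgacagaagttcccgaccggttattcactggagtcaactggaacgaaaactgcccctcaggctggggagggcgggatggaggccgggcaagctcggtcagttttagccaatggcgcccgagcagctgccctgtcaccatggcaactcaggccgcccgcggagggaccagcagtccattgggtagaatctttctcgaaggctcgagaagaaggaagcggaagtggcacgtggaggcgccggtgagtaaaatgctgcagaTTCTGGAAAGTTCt
The first element, searched on both strands, stood in 8 of 16 genes of the unfolded protein list with a window (50.0%), namely Calr, Canx, Creld2, Dnajc3, Hsp90b1, Hspa5, Pdia6 and Syvn1, and in 37 of 27025 genes in all (0.1%). These 8 were all called higher. The second stood in 3 of 9 heat shock genes (33.3%), namely Hspd1, Hspe1 and Hsph1, against 0.7% of all genes, and Hspe1 was not called.

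Among genes of early signalling and inflammation more were called higher than lower, and many were not called. The shares over all genes were 21.0% higher and 20.4% lower. Of 21 immediate early genes 10 were higher and 3 lower (9 and 4 without the pairs that stand apart), and their summed level was higher in 1 of 9 pairs (median 826 CPM early and 739 CPM late). Egr1, a zinc finger factor induced within minutes of a growth signal, went from 0.492, 0.724 and 1.03 CPM to 2.04, 3.59 and 5.41 CPM (2.35 ± 0.17, adjusted p = 8.20e-07). Fos, of the AP-1 dimer, went from 1.92, 2.59 and 3.52 CPM to 3.92, 14.1 and 18.4 CPM (2.05 ± 0.23), and the nuclear receptor gene Nr4a1 rose by 1.77 ± 0.12. Junb went the other way at -0.35 ± 0.04, and its exons overlap those of Prdx2. Of 18 inflammatory genes 8 were higher and 1 lower, with the same counts without the pairs that stand apart. Il1a, the alarmin interleukin-1α, went from 0.379, 0.703 and 1.20 CPM to 1.26, 1.84 and 3.57 CPM (1.51 ± 0.15), Tnf rose by 0.82 ± 0.15 and the chemokine gene Ccl3 by 0.65 ± 0.12. Ccl5, a chemokine for T cells, changed by -1.60 ± 0.16. Of 14 Toll-like receptor genes and partners 6 were higher and 0 lower: Tlr2, the lipoprotein receptor, rose from 90.7, 114 and 135 CPM to 139, 173 and 182 CPM without overlap (0.58 ± 0.08), and Tlr5, the flagellin receptor, from a median of 2.50 to 15.2 CPM, with the lowest late library at 0.484 CPM.

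Interferon-induced and antigen presentation genes leaned lower. Of 25 interferon-induced genes 12 were lower and 0 higher, with a median of -0.18 (9 lower and 2 higher without the pairs that stand apart). Irf7, the amplifier of type I interferon, went from 39.2, 69.2 and 107 CPM to 23.9, 37.4 and 43.4 CPM (-0.92 ± 0.14) and Oas3, a sensor of double-stranded RNA, changed by -0.79 ± 0.13, with windows that overlapped in both. Of 14 genes of MHC class I presentation 9 were lower and 2 higher. H2-K1, a classical class I heavy chain, went from 1847, 2042 and 2380 CPM to 1194, 1435 and 1732 CPM without overlap (-0.51 ± 0.06), and the peptide transporter genes Tap1 and Tap2 changed by -0.54 ± 0.05 and -0.36 ± 0.03. Class I genes are polymorphic and alike, and exons of Tap1 overlap those of Psmb9. Of 9 class II genes 3 were higher and 3 lower (over all genes 21.0% and 20.4%). H2-Aa rose by 0.50 ± 0.10 and H2-DMb1, which edits the peptides, changed by -0.42 ± 0.07. Of 19 autophagy genes 10 were lower and 4 higher (9 and 4 without the pairs that stand apart), with Bnip3l, a receptor for mitochondria, at -0.47 ± 0.04 and Uvrag at 0.30 ± 0.04.

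The scavenger and chemokine receptor lists leaned neither way. Of 15 scavenger receptor genes 5 were higher and 4 lower (median -0.07), and of 13 chemokine receptor genes 3 were higher and 3 lower (4 and 3 without the pairs that stand apart), near the 21.0% and 20.4% of all genes. Msr1, the class A scavenger receptor (chromosome 8, 39581685 to 39642673), rose from 38.2, 42.1 and 46.7 CPM to 83.4, 90.9 and 110 CPM (1.13 ± 0.05, adjusted p = 1.72e-08), with no overlap. Stab2, which clears hyaluronan, rose by 1.56 ± 0.15, the costimulatory gene Cd86 by 1.40 ± 0.07 and the C-type lectin gene Clec4n by 1.57 ± 0.14. Mgl2, a galactose lectin of alternatively activated macrophages, rose from a median of 1.31 to 6.97 CPM (2.01 ± 0.30), and Clec10a, its close paralog, by 1.14 ± 0.26. Of 12 tested genes of alternative activation 5 were higher, 1 was lower and 6 were not called, and their changes ran from -1.58 to 2.01. Scarb1, the HDL receptor, changed by -0.93 ± 0.09. Ccr2, the receptor that brings monocytes into tissue, fell from 13.5, 28.1 and 43.3 CPM to 0.888, 5.80 and 14.9 CPM (-2.002 ± 0.24), lower in 9 of 9 pairs. Itgam, the integrin CD11b, changed by -0.85 ± 0.16, and Cx3cr1, the fractalkine receptor, by -0.29 ± 0.03 without overlap.

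Among genes of at least 5 CPM on average that rose in 9 of 9 pairs, Mgll had the largest rise. This monoacylglycerol lipase gene went from 0.835, 1.56 and 3.09 CPM to 3.54, 10.9 and 51.6 CPM (2.74 ± 0.27, adjusted p = 1.05e-05), and the late libraries all lay above the early ones. Megf9, a membrane protein with EGF domains, rose by 1.80 ± 0.13 and Fzd1, a Wnt receptor gene, by 1.69 ± 0.18, both without overlap. Adam22 rose by 1.34 ± 0.12, the spermidine synthase gene Srm by 1.27 ± 0.13, the formin gene Fmnl2 by 1.26 ± 0.08 and the adaptor gene Sh2b2 by 1.22 ± 0.14. Tfrc, the transferrin receptor, went from 94.7, 142 and 244 CPM to 158, 313 and 1108 CPM (1.19 ± 0.19). Rbpms, an RNA binding protein gene, rose by 1.16 ± 0.09 and the growth factor gene Bmp2 by 1.15 ± 0.16.

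**Figure D3:**
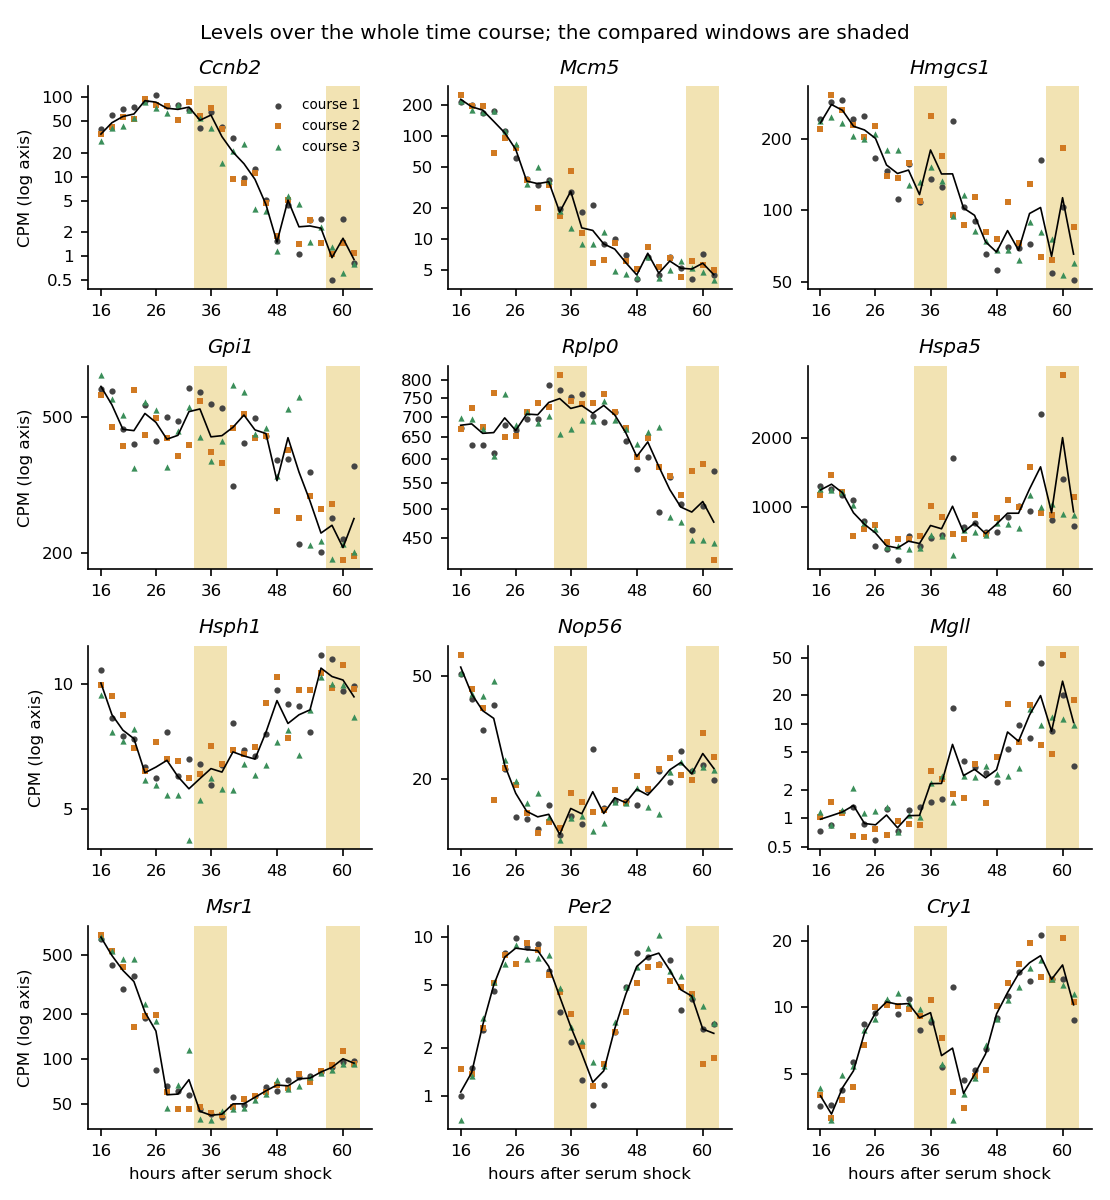
Levels (CPM scaled over all 72 libraries, log axis) of 12 genes against hours after serum shock; symbols are the 3 courses, the line joins the means and the compared windows are shaded. Ccnb2 and Mcm5 fall between the windows, Msr1, Hsph1 and Nop56 fall before the early window and rise after it, and Per2 and Cry1 oscillate.

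Core clock genes were called about as often as other genes. Of 17 tested 3 were higher and 3 lower, with a median of 0.07, and 11 were not called, while of all genes 58.6% were not called. Without the pairs that stand apart 3 were higher and 2 lower, and with counts summed per course and window 2 and 1. Per2, the repressor gene that carries the reporter, stood at 1.23, 2.67 and 4.60 CPM and then at 1.53, 2.85 and 4.33 CPM (0.12 ± 0.18, adjusted p = 0.617). It was lower at the last than at the first hour of each window: in courses 1, 2 and 3 it stood at 3.28, 4.42 and 4.60 CPM at 34 h and at 1.23, 2.02 and 2.18 CPM at 38 h, and again at 4.02, 4.33 and 4.23 CPM at 58 h and at 2.78, 1.70 and 2.85 CPM at 62 h. Arntl, which encodes the activator BMAL1, stood at medians of 32.7 and 31.8 CPM (-0.10 ± 0.07), and the REV-ERB genes Nr1d1 and Nr1d2 changed by 0.14 ± 0.08 and 0.07 ± 0.08. Cry2, Npas2, Ciart, Bhlhe41, Csnk1d and Csnk1e were not called either. A missed call does not show that a level was unchanged.

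Cry1, the late cryptochrome repressor (chromosome 10, 85131700 to 85185064), was the clock gene that changed with the smallest p. It rose from 5.22, 8.43 and 10.7 CPM to 8.60, 13.1 and 20.0 CPM, higher in 9 of 9 pairs (0.69 ± 0.07, adjusted p = 9.77e-06). Per1, a repressor that also answers to signals, rose by 0.37 ± 0.08 and Clock, the partner of BMAL1, by 0.23 ± 0.06. Rora, an activator of Arntl, fell from 25.8, 30.4 and 32.5 CPM to 16.1, 19.1 and 30.5 CPM (-0.55 ± 0.09), with only the late library at 60 h of course 2 as high as the early ones. Bhlhe40, a repressor, stood at 15.7, 17.4 and 38.3 CPM and then at 5.19, 6.54 and 60.3 CPM (-0.87 ± 0.26), the 60.3 CPM again at 60 h of course 2, and lost the call in 8 of 14 alternatives. Fbxl21, a ligase of the cryptochromes, was called at an adjusted p of 0.0496 and lost the call in 12. Clock lost it in 4 of them, Per1 in 3, Rora in 2 and Cry1 in 1. Of 13 genes of clock output and the PAR bZIP family 5 were lower and 3 higher (5 and 2 without the pairs that stand apart). Over all genes 20.4% were lower and 21.0% higher. Dbp, which the clock drives through E-boxes, went from 61.0, 80.9 and 89.1 CPM to 47.1, 59.0 and 69.4 CPM (-0.34 ± 0.06), lower in 9 of 9 pairs. Tsc22d3, the glucocorticoid-induced GILZ, changed by -0.85 ± 0.05 and Klf9, another glucocorticoid target, by -0.69 ± 0.08. Wee1, which holds back mitosis, changed by -0.93 ± 0.12. Exons of Dbp overlap those of Sphk2, and exons of Nr1d1 those of Thra.

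**Figure D4:**
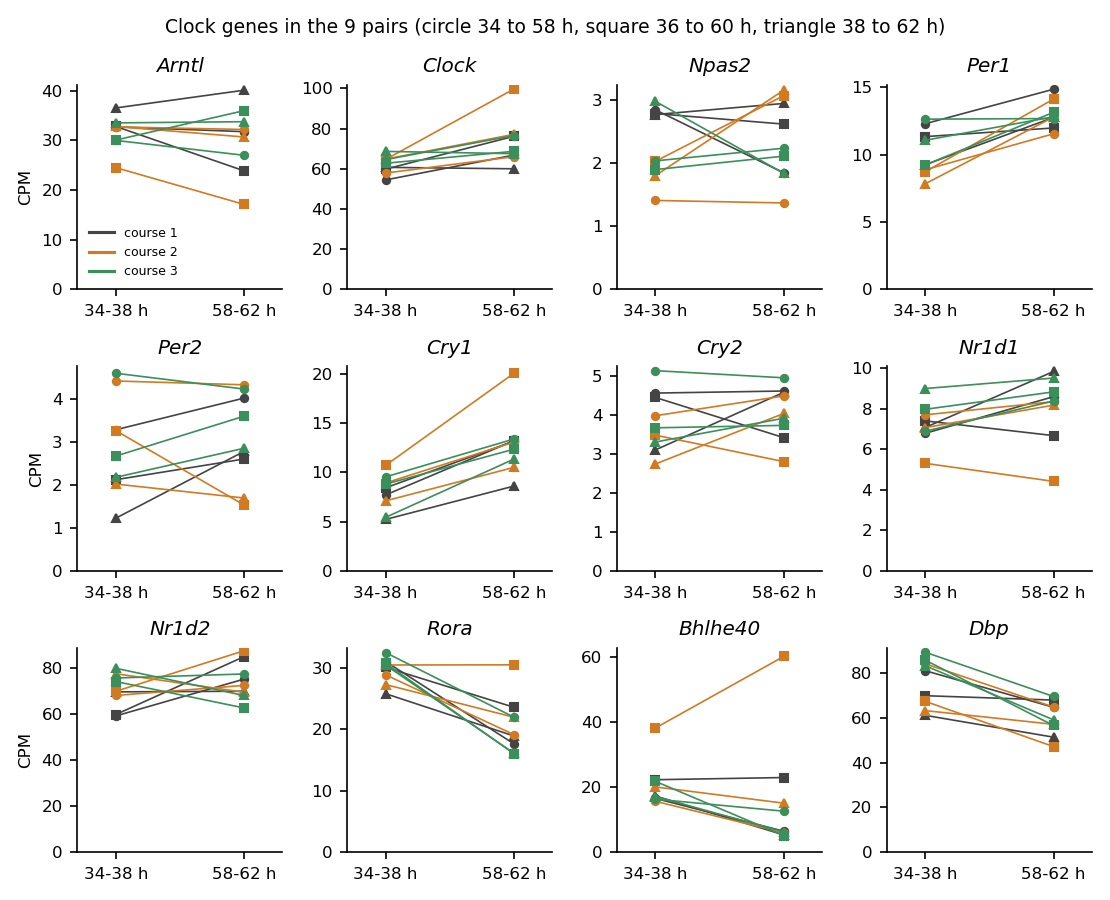
Levels (CPM) of 12 clock genes in the 9 pairs; each line joins a library at 34, 36 or 38 h (left) to the library 24 h later in the same course (right), with symbols for the hour and colours for the course. Cry1 rises and Dbp falls in 9 of 9 pairs, while the lines of Per2, Cry2 and Nr1d1 cross in both directions.

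No gene was called for a change that depended on the hour or the course. A test of whether the change depended on the hour (34, 36 or 38 h) called 0 genes in edgeR, with 516 (3.06%) at an unadjusted p under 0.05 and a smallest adjusted p of 0.966. A test of whether it depended on the course called 0 genes, with 1411 (8.36%) unadjusted and a smallest adjusted p of 0.146. Neither test shows that the changes were equal. The median of the sterol list ran from -1.71 in the 36/60 h pair of course 3 to -0.45 in the 36/60 h pair of course 2, and that of the S phase list from -1.79 in the 36/60 h pair of course 2 to -0.25 in the 36/60 h pair of course 3. The extremes of both lists lie in the pairs whose late libraries stand apart.

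The change was then compared with the 24 h change from 16-20 h to 40-44 h, at another clock phase and earlier in culture, in 1 fit of all 72 libraries. That fit tested 17903 genes and called 7802 (43.6%) for 34-38 h to 58-62 h, and 12116 (67.7%) for the earlier change. The 2 changes differed for 10249 genes (57.2%), with a positive difference (late change minus earlier change) for 4939 and a negative one for 5310. Many genes turned round: of 3874 that rose late, 1688 had also risen earlier and 1241 had fallen, and of 3928 that fell late, 1854 had also fallen and 1193 had risen. All 1241 and 1193 were among the genes whose changes differed. This was nearly fixed in advance, because called changes of opposite sign add up in their difference. The earlier windows also hold libraries that stand apart, at 40 h in courses 1 and 3. Since 40-44 h came after 34-38 h, the 2 changes also overlap in time.

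The gene lists differed in which change was larger. For G2 and M phase the late median was -3.55 and the earlier one -2.12, and 19 of 26 members had a negative difference and 1 a positive one. For S phase it was the reverse, -0.86 against -3.27, with 24 of 25 positive. Histones changed by -2.25 late and -3.69 earlier, with 13 of 15 differences positive. Sterol genes fell in both, at -0.96 and -1.29, and 15 of 24 did not differ. Ribosomal protein genes had a median of -0.38 late and 0.04 earlier, with 21 of 25 negative, and glycolysis and HIF genes -0.69 and -0.25, with 15 of 25 negative.

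Other lists changed sign. The unfolded protein list had a median of 0.42 late and -0.49 earlier, with 13 of 18 differences positive and 2 negative, and heat shock genes 0.37 and -0.43, with 11 of 13 positive. Ribosome biogenesis genes had 0.37 and -0.53, with 18 of 20 positive, splicing genes 0.24 and -0.61, with 13 of 15 positive, and inflammatory genes 0.29 and -1.53, with 12 of 20 positive. Autophagy genes went the other way, at -0.14 and 0.33, with 14 of 19 negative, and p53 targets at -0.18 and 0.16, with 10 of 15 negative. All 10 class II genes tested had a negative difference, with medians of -0.36 late and 1.32 earlier. Over all 17903 genes 4939 differences were positive and 5310 negative.

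**Figure D5:**
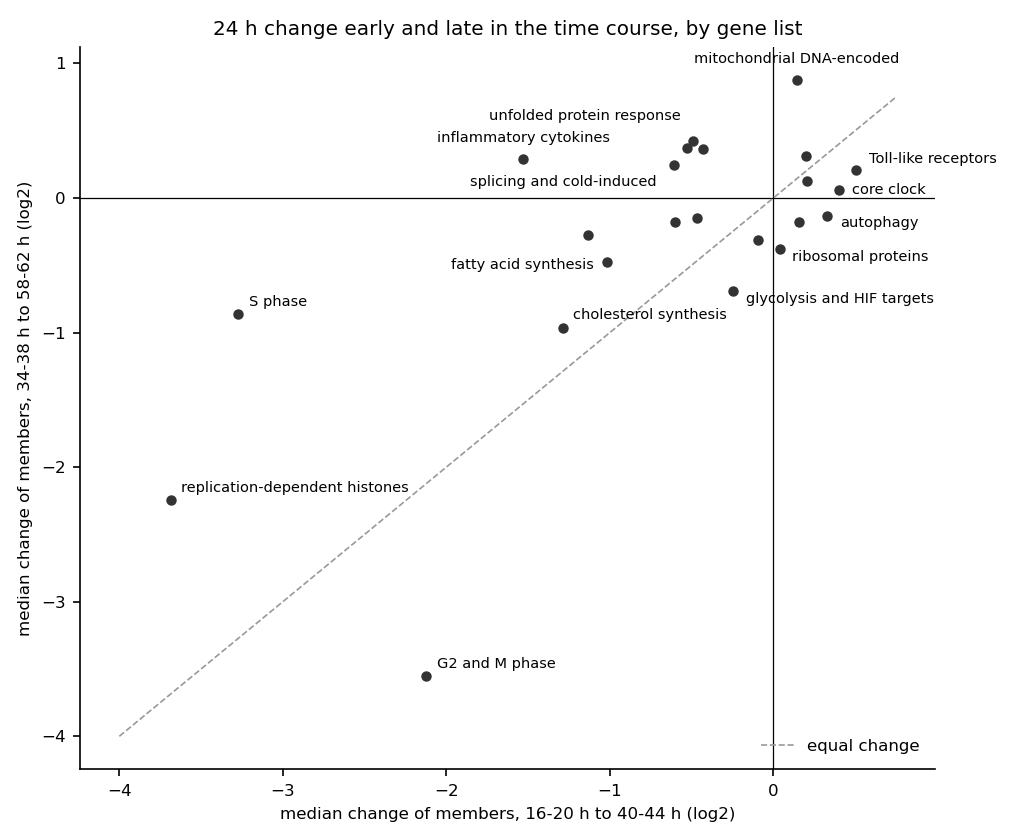
Median change (log2) of the members of 23 gene lists from 34-38 h to 58-62 h (y axis) against their median change from 16-20 h to 40-44 h (x axis), both from 1 fit of 72 libraries; each point is a list, some named, and the dashed line marks equal change. The G2 and M phase list lies below the line at -3.55 late against -2.12 earlier, the S phase list above it at -0.86 against -3.27, and the unfolded protein list has opposite signs at 0.42 and -0.49.

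Single genes show the turn most plainly. Msr1 had fallen by 3.27 on the log2 scale from 16-20 h to 40-44 h and rose by 1.12 from 34-38 h to 58-62 h, a difference of 4.40 ± 0.19 (SE; adjusted p = 4.28e-24). Stip1, a co-chaperone that links HSP70 and HSP90, had changed by -1.07 and rose by 0.30. Dtymk, Ptma, Snx2 and Rbbp7 had changed by -2.21 to -1.35 earlier and were not called from 34-38 h to 58-62 h. Tk1, the thymidine kinase of S phase, fell in both, by 4.07 and then 0.99, and Cd36, the fatty acid and lipoprotein scavenger receptor, by 3.30 and then 0.33.

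Fewer genes differed from the 24 h change from 26-30 h to 50-54 h. The 2 changes differed for 1806 genes (10.1%), 1031 with a positive and 775 with a negative difference, and this count ran from 225 without course 3 to 1417 without course 2. That earlier change was called for 8513 genes (47.6%). Of 3874 late risers 2636 had also risen there and 42 had fallen, and of 3928 late fallers 2830 had fallen and 47 had risen. These windows share no library with those compared here. All 15 histone genes had a positive difference, with medians of -2.25 late and -3.78 earlier, and 23 of 25 S phase genes did, with -0.86 and -1.73. Ribosomal protein genes had 16 of 25 negative, with -0.38 and -0.13, while G2 and M phase genes had 4 of 26 positive, with -3.55 and -3.67.

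Markers of other cell types summed to far less than those of macrophages, and some of the sums moved. Each sum covers only the members that passed the filter on low counts. Macrophage markers were all present, with a summed level of 21854 to 26607 CPM at 34 to 38 h and 19015 to 26918 CPM at 58 to 62 h, higher in 5 of 9 pairs. Of these 12 genes 3 were higher, Mertk and Fcgr1 among them, and 2 lower (Adgre1 and Itgam), with a median of 0.08. Fibroblast markers summed to 19.8 to 389 CPM (median 188) and then to 7.77 to 160 CPM (median 93.5), lower in 7 of 9 pairs, with 12 of 14 tested and only Postn called (-1.76 ± 0.56), a call lost without the pairs that stand apart. Endothelial markers summed to 139 to 227 CPM and then to 44.5 to 259 CPM, most of it Vwf, which fell (-1.46 ± 0.23). Of the 4 tested Cdh5 and Pecam1 were higher, at late medians of 0.412 and 1.31 CPM, and the list median was 0.58. Of 10 neutrophil markers 2 were tested, and these stayed under 0.866 CPM in sum in every library. The 6 tested of 9 dendritic markers stayed under 5.89 CPM in sum. Of 9 erythroid and megakaryocyte markers 4 were at 0 in all 18 libraries. The part of such cells in the results above was not tested.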

How the data were processed

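The 72 RNA libraries are 1 per course and hour. Per the submitters' processing notes, DRAGEN and HTSeq were used with GRCm38/mm10; no source used here gives their versions, the annotation release or the strand setting. The deposited values are raw counts per gene (49568 genes), with 5 closing lines that tally reads not assigned to a gene. Those lines were left out; reads that aligned to several places made up 19.5% to 31.2% of the tally in the 18 libraries and were not counted, so near-identical genes are uncertain.

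The 18 libraries were fitted in edgeR 4.0.16 (limma 3.58.1, R 4.3.3) by the quasi-likelihood test, with TMM scaling, edgeR's filter on low counts, a block for each of the 9 pairs and Benjamini-Hochberg adjustment over 16871 genes; a gene was called at an adjusted p under 0.05. Dependence on hour or course was tested by interaction terms. The 24 h changes were compared in 1 fit of all 72 libraries. Alternatives were RLE scaling, no filter, DESeq2 1.42.0, no block, course and hour as additive terms, counts summed per course and window, each hour pair alone, each course left out, and the pairs with a library that stands apart left out. Tables and figures used Python 3.11.15, pandas 2.3.3, numpy 2.4.6 and matplotlib 3.10.9. Overlapping exons were read from GENCODE M21, and promoters from RefSeq.

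By rule the text names 14 rises and 14 falls with the largest change among called genes of at least 5 CPM that moved alike in 9 pairs, the 8 genes of smallest adjusted p for each difference between changes that had 1 sign in the 3 courses, every tested core clock gene, and the 4 members of smallest adjusted p per list, passing over predicted genes. Other list members were named after their values were seen. The members and lists were chosen with earlier results of these data known. Some members of the lists are not reported here by name.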

Additional observations from a re-analysis of the deposited data

Results flagged for a closer look

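The change from 34-38 h to 58-62 h differed from that between 16-20 h and 40-44 h for 10249 genes, and from that between 26-30 h and 50-54 h for 1806, each by the test of the difference itself in the fit of 72 libraries. Against the first, the 8 named genes had positive differences on the log2 scale of 4.40 for Msr1, 2.09 for Dtymk, 1.36 for Ptma, 2.28 for Snx2, 3.08 for Tk1, 2.97 for Cd36, 1.37 for Stip1 and 1.49 for Rbbp7. Against the second, the differences were 1.68 for Cd36, 1.47 for Tk1, 0.92 for Trip4, 1.62 for Hist1h2bj, 0.51 for Ptgr1, 0.75 for Gpx1, 0.47 for Adam15 and 1.16 for Hist1h2bg. Exons of Adam15 overlap those of 4731419I09Rik, and the histone genes have near-identical copies.

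Of 42 groups of 9 libraries checked for a library far from the others by Dixon's criterion, 3 passed, and chance gives about 1 in 20. The summed T and NK cell markers, of which Cd4 was the 1 tested, were 35.9 CPM at 38 h of course 3, where the next library was at 28.5 CPM. The summed mast cell and basophil markers, of which 2 were tested, were 4.70 CPM at 36 h of course 2, with the next at 2.30 CPM. The same sum was 32.9 CPM at 60 h of course 2, with the next at 4.44 CPM, and nearly all of it was Kit. That library is 1 of those that stand apart, and the part of such cells in the results was not tested.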

How the results depend on the processing

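The number of genes called was 6991, and stayed within 1.5 times that under RLE scaling (6953), with no filter (6160), in DESeq2 (7178), with hour and course as separate terms (7172), at 34 and 58 h alone (5944), in the fit of 72 libraries (7802) and without the pairs that stand apart (6645). Summing counts per course and window called 4608, of which 2076 were higher. The 36 and 60 h libraries alone called 453 (88 higher, 365 lower) and the 38 and 62 h libraries alone 992 (339 higher, 653 lower); both fits hold fewer libraries, as does that at 34 and 58 h. With each course left out in turn 4686 to 6338 genes were called, 2170 to 3107 higher and 2516 to 3231 lower. No gene called both ways had the opposite sign under any of these, and RLE scaling moved the median of all genes by 0.0024. The count that differed from the change between 26-30 h and 50-54 h ran from 225 to 1417 with a course left out, 163 to 847 positive and 62 to 570 negative, at 225 without course 3 and 789 without course 1; the cause was not tested.

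The main design holds a block for each pair. Without the replicate block 6582 genes were called (3330 higher, 3252 lower), 9842 differed from the change between 16-20 h and 40-44 h and 1383 from that between 26-30 h and 50-54 h. Each library was also set against the mean of the courses at its own hour. The deviations of the 2 libraries of a pair then correlated at -0.14 to 0.19, above 0.1 in 7 of 9 pairs. The shared course is therefore not shown to pair the samples. Those means take out the hour, so the correlations cannot decide whether the shared hour pairs them.

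Of 216 named genes, 144 lost their call at 36 and 60 h alone, 104 at 38 and 62 h alone, 6 to 12 with a course left out, 12 on summed counts and 0 under RLE scaling. Cdh5, an endothelial marker, was 0.92 on the log2 scale and reversed to -0.11 at 36 and 60 h alone. Depth, at 49465216 counts or more, limits only genes of few counts.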
